A study of Mus musculus with 6 samples.

Results

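ADAM proteins are membrane proteins with a metalloprotease-like domain and a disintegrin domain, and they serve as sheddases or as adhesion proteins. Here the family was taken as every gene whose symbol starts with Adam and a digit in the array's annotation, without the related secreted ADAMTS genes. This rule found 28 genes among the 18193 genes that have a probe set of their own on the array. Each gene was represented by 1 probe set that names it alone, the one with the highest mean log2 signal over the 4 arrays labelled shCaf1 or shMiwi. The 28 genes fall into 8 of the sperm surface complexes, 8 others known from germ cells or the epididymis, 9 broadly expressed sheddases and 3 non-catalytic members of the nervous system. The family name as a group of sperm surface proteases therefore covers only some of the members, and several of these have lost the catalytic residues of a protease.

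In the testis, germ cells make a set of ADAM proteins that are found in few other tissues. ADAM1 and ADAM2 form the fertilin heterodimers, and ADAM3 (cyritestin) reaches the sperm surface only when fertilin, several endoplasmic reticulum chaperones and other testis proteins are present. Mouse sperm without surface ADAM3 pass poorly from the uterus into the oviduct and bind poorly to the zona pellucida. The ubiquitous members ADAM10 and ADAM17 act differently: they cut receptors and ligands such as Notch, TNF and growth factor precursors from the cell surface.

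The arrays measured RNA of elongating spermatids, the haploid germ cells that reshape into sperm. All groups were wild-type ICR mice whose testes received a GFP vector at 5 weeks of age, and GFP+ elongating spermatids were sorted from the total germ cells 1 week later. The vectors were pSilencer for the control group, shMiwi (a short hairpin RNA against Miwi, the piRNA-binding protein Piwil1) and shCaf1 (a short hairpin RNA against Caf1, taken here as the deadenylase Cnot7). Each of the 3 groups has 2 arrays, called biological replicates in their titles. The labels do not say how many mice stand behind an array, so p-values measure only the spread between these arrays. The question asked of the family was which members differed between the knockdowns and between each knockdown and control. In bulk RNA, fewer cells of a type and less RNA per cell cannot be told apart.

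The pSilencer arrays differed from all others. Relative to the mean of the 4 shRNA arrays, the hybridization controls (labelled RNAs spiked into every sample at a set amount) read 82.3-fold on control 1, 16.2-fold on control 2 and 0.806-fold to 1.20-fold on the single shRNA arrays. The deposited signals give every array the same trimmed mean, so the counts of members against control are given on that scale and also on a scale set by these added RNAs. Values are on the deposited scale unless stated. Pearson's r over all probe sets was 0.490 between the control arrays and 0.984 and 0.983 within shCaf1 and shMiwi. Elongating spermatid markers had a median percentile within the array of 25.2 on control 1, where protamine Prm1 read 66.1, against 99.6 on control 2 and 99.3 to 99.8 on the shRNA arrays. On control 1, 6 of these 8 markers lay below the 60th percentile, which goes against its labelled cell type. Markers of cell types other than the labelled one also ranked high on the shRNA arrays. There the median percentiles were 98.2 to 98.9 for 6 pachytene spermatocyte markers and 95.5 to 96.5 for 4 Leydig markers, and their source was not tested. Piwil1 read 1445360 and 292542 in control, 21881 and 22442 in shCaf1 and 9780 and 10392 in shMiwi. Scaled on the hybridization controls it read 17570 and 18020 in control, 19930 and 18700 in shCaf1 and 10390 and 12890 in shMiwi, and its differences from control were 0.12 in shCaf1 and -0.62 in shMiwi (limma adjusted p = 0.949 and 0.737). Between the knockdowns it was lower in shMiwi by limma (log2 difference -1.14, SE 0.10, adjusted p = 0.00132). Cnot7 read 2003570 and 188877 in control, 3633 and 4330 in shCaf1 and 4365 and 5012 in shMiwi, and its difference between the knockdowns was not called (0.24, limma adjusted p = 0.304). On the deposited scale limma called both targeted genes lower than control in both knockdowns. The differences were -4.87 in shCaf1 and -6.01 in shMiwi for Piwil1, and -7.27 and -7.03 for Cnot7. Cnot7 on the hybridization control scale read 24350 and 11640 in control, 3308 and 3607 in shCaf1 and 4638 and 6218 in shMiwi. There limma called neither knockdown against control (adjusted p = 0.122 in shCaf1 and 0.254 in shMiwi), and called Cnot7 higher in shMiwi than in shCaf1 (0.63, adjusted p = 0.0128).

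Between the knockdowns, most of the family was not called. Of the 25 members bright enough to be tested, Adam9 rose and Adam21 fell in shMiwi relative to shCaf1, and 23 were not called. That is a share near the background, since 7.09% of the 27022 probe sets tested were called, 3.7% as higher and 3.39% as lower. A call is an adjusted p under 0.05 in limma over all probe sets tested. The median difference of the tested members was -0.04 on the log2(signal + 16) scale, against 0.02 over all probe sets tested. Of all 28 members, 24 had group means within 1.5-fold. Adam7, Adam28 and Adam33 were too dim on the shRNA arrays to be tested. On the hybridization control scale the median of all probe sets shifted to 0.39, 5 members were called higher (Adam9, Adam10, Adam12, Adam1b and Adam24) and 0 lower, beside a background of 26.5% higher and 0.966% lower. By size on that scale, 2 members were at least 2-fold higher without overlap, beside 6.48%. Relative to that median, Adam9 stood at 1.01 and Adam21 at -0.76 on the hybridization control scale. That scale applies 1 factor to each array, so for bright genes these values repeat the deposited differences and add no separate support.

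**Figure D1:**
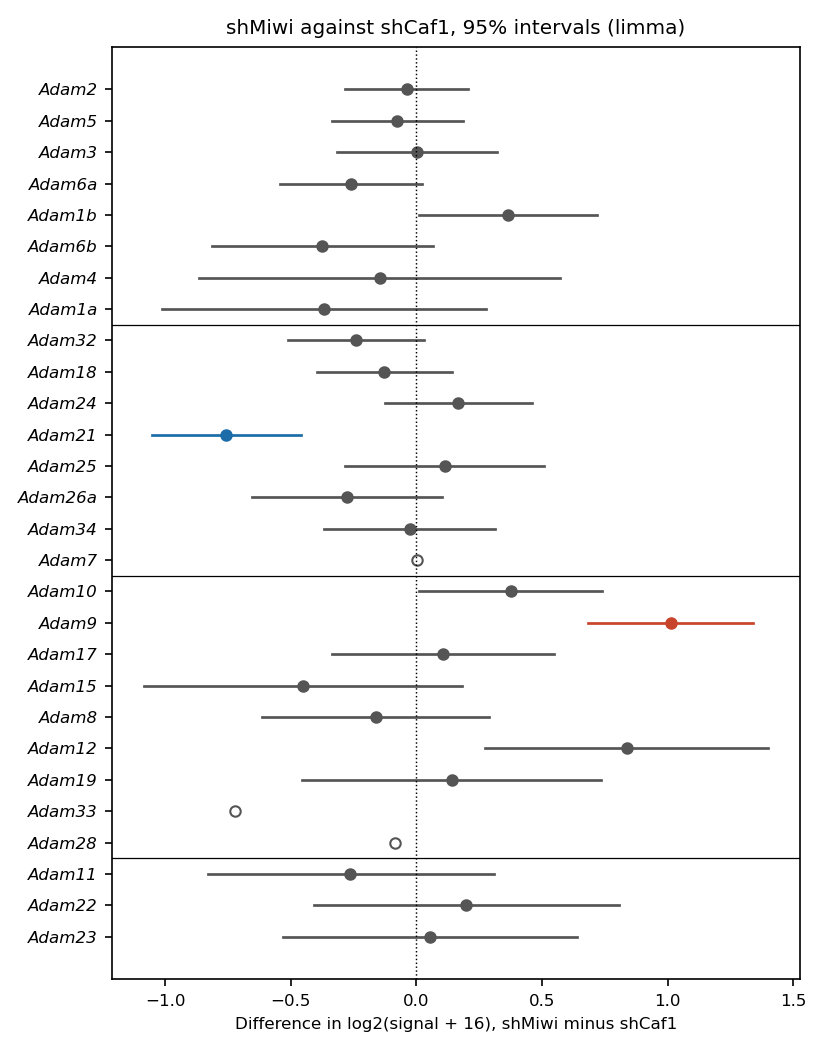
Difference between shMiwi and shCaf1 for each ADAM gene, as shMiwi minus shCaf1 in log2(signal + 16) on the x axis. Points are differences of 2-array means with 95% limma intervals, open circles are the untested Adam7, Adam28 and Adam33, horizontal black lines part the roles, and the red point (Adam9, 1.01) and the blue point (Adam21, -0.76) are the called members.

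Against control, the members called higher were mostly germ cell genes. They were 6 of 8 sperm surface genes, 5 of 7 tested genes of the other germ cell or epididymal group, 1 of 8 tested sheddases and 0 of 3 neural members in shMiwi, and a difference between these groups was not tested. Of 26 members tested, 12 were called higher and 0 lower in shMiwi, beside a background of 8.76% higher and 3.04% lower. In shCaf1, 10 were called higher and 0 lower, beside 7.69% and 2.2%. In either direction 11.8% of the probe sets tested were called in shMiwi and 9.88% in shCaf1. The filter for this test used the mean over all 6 arrays, and Adam33 entered through its control signal. Adam6a, Adam6b, Adam17, Adam21 and Adam26a lay below the 40th percentile on both control arrays and entered through their knockdown signals. Both comparisons use the same control arrays. Each probe set was chosen by its signal on the 4 shRNA arrays, which favours higher values against control, unlike the background. This choice concerns the 11 members with more than 1 probe set of their own. The other gene lists were represented in the same way. With the probe set of highest mean over all 6 arrays instead, the counts called higher were again 12 and 10. The number called higher in shMiwi was 8 without control 1 and 7 without control 2, and in shCaf1 it was 7 and 8. With equal weights for all arrays, limma also called 10 members lower in each comparison. A rule of size without a test asked for group means 2-fold or more apart and arrays that do not overlap. By it, 15 of 28 members were higher and 11 lower in shMiwi on the deposited scale, beside 26.6% and 35.7% of all probe sets tested. In shCaf1 these counts were 14 and 10, beside 25.6% and 35.6%. On the hybridization control scale 25 members were higher and 0 lower by this rule in each comparison, beside backgrounds of 91.9% and 88.8% higher and 0.155% and 0.0814% lower. Limma on that scale called 24 and 25 of 26 members higher and 0 lower, beside 87.2% and 82.4% higher and 0.0962% and 0.0222% lower. Many control signals of members lay below the constant added before the log there, such as 0.938 and 0.796 for Adam17. Adam2 read 0.182 and 35.8, while Adam10 and Adam15 lay above the constant on both control arrays. The constant draws dim control signals together, so control spread, sizes and p-values there partly reflect it. No smaller constant was tried on that scale. The shares of members called higher were near the background there. The 12 members called in shMiwi on the deposited scale differed from control by 5.39 (Adam26a) to 9.14 (Adam5) on the hybridization control scale, where the median of all probe sets tested was 3.58. The 10 called in shCaf1 differed by 5.27 (Adam26a) to 8.82 (Adam5), where that median was 3.15. These members were picked by their deposited differences from the same arrays, so their place above the medians adds no separate support.

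**Figure D2:**
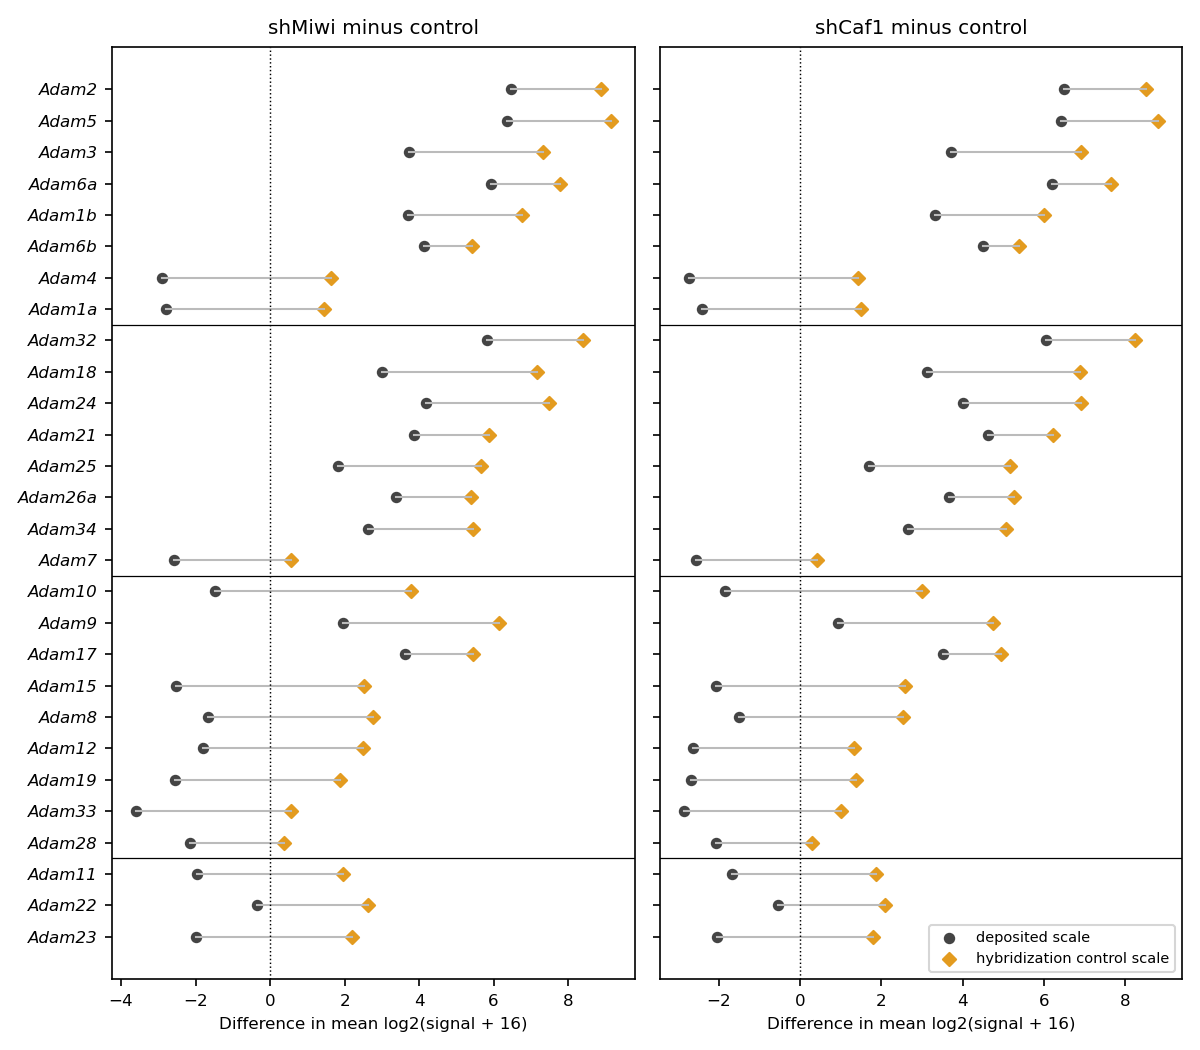
Difference of each ADAM gene from control in log2(signal + 16), for shMiwi and shCaf1, on the deposited scale and on the hybridization control scale. Of the 26 members tested, 12 in shMiwi and 10 in shCaf1 were called higher on the deposited scale, and all 28 differences are above 0 on the hybridization control scale.

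The position of a probe set within its own array does not depend on the scale of the array, but it does depend on how much signal the array holds. Scaled on the hybridization controls, 101 and 495 probe sets read over 1000 on control 1 and control 2, against 5980 to 8137 on the shRNA arrays. Many control percentiles may thus rank dim values. The 8 sperm surface genes had a median percentile of 44.5 on control 1 and 44.0 on control 2, and of 91.4 to 92.9 on the shRNA arrays. The 8 other germ cell or epididymal genes had 48.5, 34.8 and 82.8 to 87.2. The 9 broadly expressed sheddases lay the other way, at 74.7 and 78.2 on the control arrays and 63.9 to 66.8 on the shRNA arrays. All 4 shRNA percentiles were above both control percentiles for 6 of 8 sperm surface genes, 7 of 8 other germ cell or epididymal genes, 1 of 9 sheddases and 0 of 3 neural members, beside 35.6% of all probe sets tested. They were below both for 2, 0, 6 and 0 members of these groups, beside 26.7%. The choice of probe sets by their knockdown signal favours higher knockdown percentiles here as well.

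Control 2 was high in elongating spermatid markers while most of its germ cell ADAM genes were low. Its round spermatid and pachytene spermatocyte markers had median percentiles of 78.6 and 61.1, against 97.2 to 98.2 and 98.2 to 98.9 on the shRNA arrays. On control 1 these medians were 20.4 and 35.2. Percentiles near the top hide differences in amount. The summed deposited signal of the elongating spermatid markers was 635926 on control 2, against 106099 to 167925 on the shRNA arrays. Scaled on the hybridization controls, these sums were 39180 against 122300 to 140400. The part of these marker differences in the ADAM results against control was not tested.

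**Figure D3:**
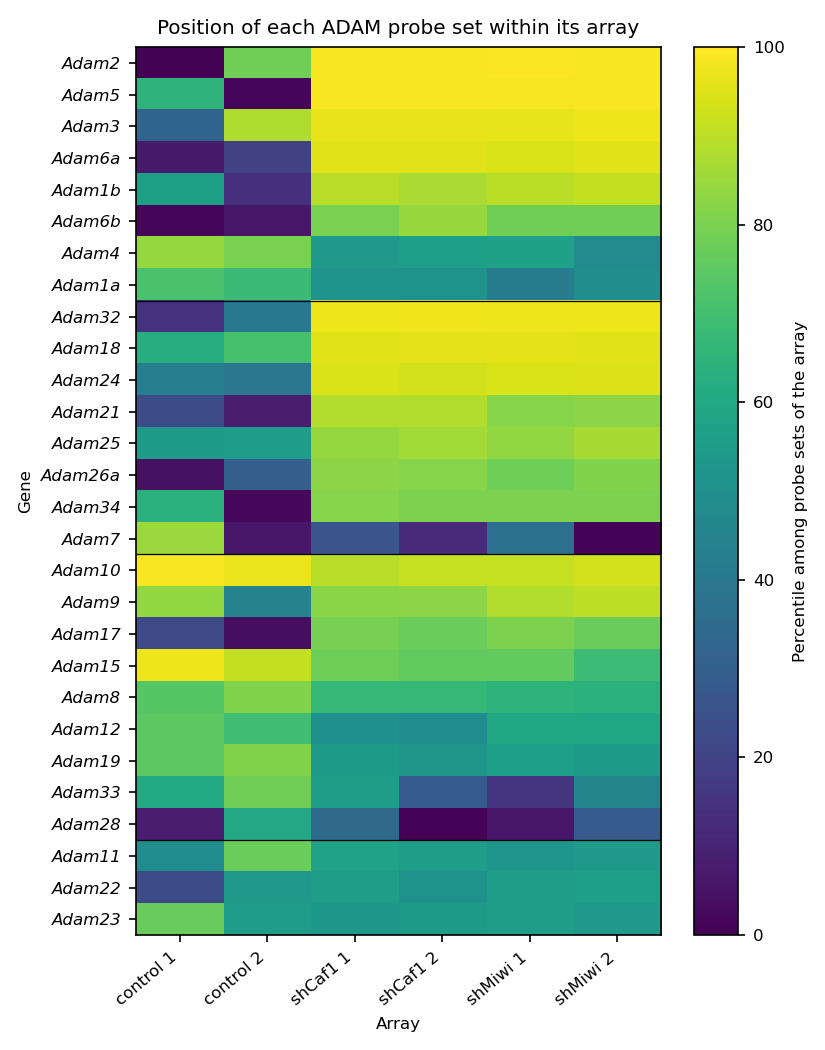
Percentile of each ADAM probe set among the probe sets of its array (colour, 0 to 100) for the 6 arrays, with genes in rows and horizontal black lines between the roles. Adam2 lies at 0.406 and 78.4 on the control arrays and at 99.1 to 99.5 on the shRNA arrays, while Adam10 lies at 98.9 and 97.1 and then at 89.4 to 93.0.

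Adam2 encodes fertilin beta, the partner shared by the fertilin complexes. Its signal was 15.0 and 580.5 on control 1 and control 2, 11705 and 12835 in shCaf1 and 12646 and 11258 in shMiwi. The knockdown groups overlapped, and both lay above both control arrays. The difference between shMiwi and shCaf1 was -0.04 (SE 0.11, 95% interval -0.28 to 0.21, limma adjusted p = 0.863). Against control the log2 difference was 6.46 (SE 0.97, adjusted p = 0.00678) in shMiwi and 6.50 (SE 0.97, adjusted p = 0.00781) in shCaf1 by limma.

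Adam3, the cyritestin gene, read 128 and 1078 in control, 5125 and 5350 in shCaf1 and 4583 and 6010 in shMiwi. The shMiwi arrays lay on either side of the shCaf1 arrays. Its difference between the knockdowns was 0.00 with a 95% interval of -0.31 to 0.32 (limma adjusted p = 0.991), and against control it was 3.73 in both, with adjusted p = 0.028 for shMiwi and 0.0304 for shCaf1. Without control 1 both calls were lost (limma adjusted p = 0.245 and 0.267).

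Adam5, a non-catalytic partner found with ADAM2 and ADAM3 on sperm, read 534 and 8.87 in control, 9467 and 10576 in shCaf1 and 8849 and 10181 in shMiwi. The knockdown groups overlapped, with a difference of -0.08 and a 95% interval of -0.34 to 0.18. Against control Adam5 was higher by 6.35 in shMiwi and 6.42 in shCaf1 (limma adjusted p = 0.00738 and 0.00853). The control arrays were in opposite order for Adam2 and Adam5: Adam2 was the dimmer on control 1 and Adam5 on control 2.

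Adam6a and Adam6b are neighbouring copies on chromosome 12, and ADAM6 is found in complexes with ADAM2 and ADAM3. Their RefSeq promoter windows (GRCm38.p6), the 250 bases before each annotated start, are shown because both genes differed from control and the windows share a run of 149 bases, printed in capitals. The Adam6a window is chr12:113543658-113543907 on the plus strand and the Adam6b window is chr12:113489315-113489564 on the plus strand.
Adam6a: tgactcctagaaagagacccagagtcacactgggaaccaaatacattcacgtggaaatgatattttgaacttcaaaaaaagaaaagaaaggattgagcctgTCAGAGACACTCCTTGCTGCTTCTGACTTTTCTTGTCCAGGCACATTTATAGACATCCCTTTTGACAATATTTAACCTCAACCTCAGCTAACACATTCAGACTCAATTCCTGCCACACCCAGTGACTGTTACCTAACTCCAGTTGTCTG
Adam6b: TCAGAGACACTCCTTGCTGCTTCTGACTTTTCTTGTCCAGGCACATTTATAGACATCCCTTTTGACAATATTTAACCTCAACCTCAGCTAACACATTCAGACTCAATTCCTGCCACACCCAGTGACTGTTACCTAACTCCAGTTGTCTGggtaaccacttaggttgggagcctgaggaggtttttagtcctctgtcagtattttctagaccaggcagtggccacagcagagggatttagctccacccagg
The shared run ends at the base before the start in Adam6a and lies from -250 to -102 in Adam6b, so the same letters sit at different distances from the annotated starts. Both windows hold TATAAA or its complement TTTATA, as do 12.4% of all 32851 RefSeq windows of this length, and this match lies within the shared run. The windows of Adam1a and Adam1b, another neighbouring pair, share a run of only 7 bases.

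Adam6a read 33.5 and 45.2 in control, 3964 and 4089 in shCaf1 and 3075 and 3670 in shMiwi. Both shMiwi arrays were below both shCaf1 arrays, but the difference of -0.26 was not called by limma (95% interval -0.54 to 0.02, adjusted p = 0.238). Against control it was higher by 5.94 in shMiwi and 6.20 in shCaf1 (limma adjusted p = 0.00448 and 0.00564). Adam6b read 20.8 and 18.0 in control, 651 and 958 in shCaf1 and 618 and 594 in shMiwi, again with shMiwi below shCaf1 and no call (-0.37, 95% interval -0.81 to 0.07, limma adjusted p = 0.276). It was higher than control by 4.14 and 4.51 (limma adjusted p = 0.0293 and 0.0234). Those calls for Adam6b were lost without control 1 (limma adjusted p = 0.151 and 0.13) and without control 2 (0.113 and 0.0859). A probe set that names both genes read 2713 to 3698 on the shRNA arrays and 1059 and 696 on the control arrays. It differed from control by only 1.74 in shMiwi and 1.98 in shCaf1, without a call (limma adjusted p = 0.128 and 0.102). Signal of these near copies may be shared between probe sets.

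Adam1a and Adam1b encode 2 forms of fertilin alpha; the ADAM1A form stays in the endoplasmic reticulum and ADAM1B reaches the sperm surface. Adam1b read 405 and 32.2 in control, 1612 and 1251 in shCaf1 and 1710 and 1961 in shMiwi. The shMiwi arrays were above the shCaf1 arrays, and the difference of 0.36 was not called (95% interval 0.01 to 0.72, limma adjusted p = 0.192). Against control it was higher by 3.70 in shMiwi (limma adjusted p = 0.0372) and by 3.33, without a call, in shCaf1 (adjusted p = 0.0567). The shMiwi call was lost without control 2 (limma adjusted p = 0.25) and without shMiwi replicate 2 (0.0578). A second Adam1b probe set gave 1.24 in shMiwi and 0.71 in shCaf1, neither called (limma adjusted p = 0.421 and 0.652), and the remaining one, too dim to be tested, gave -3.46 and -3.74.

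Adam1a read 655 and 394 in control, 84.0 and 79.4 in shCaf1 and 53.4 and 66.6 in shMiwi, so the knockdown arrays were the lower ones. Adam4, a testis gene placed here with the surface complex, read 974 and 619 in control, 96.7 and 108 in shCaf1 and 125 and 64.8 in shMiwi. Neither was called against control by limma (adjusted p = 0.0943 and 0.125 in shMiwi, 0.135 and 0.146 in shCaf1) or between the knockdowns, where the differences were -0.37 and -0.15. Their differences from control turned positive on the hybridization control scale. Adam1a is uncertain, because the 4 probe sets that name both Adam1a and Mapkapk5 disagree among themselves. The 2 brightest read 6610 to 8018 on the shRNA arrays and were higher there than on control, without a call, whereas the other 2 were lower on every shRNA array than on both control arrays, as was the probe set of Adam1a alone.

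**Figure D4:**
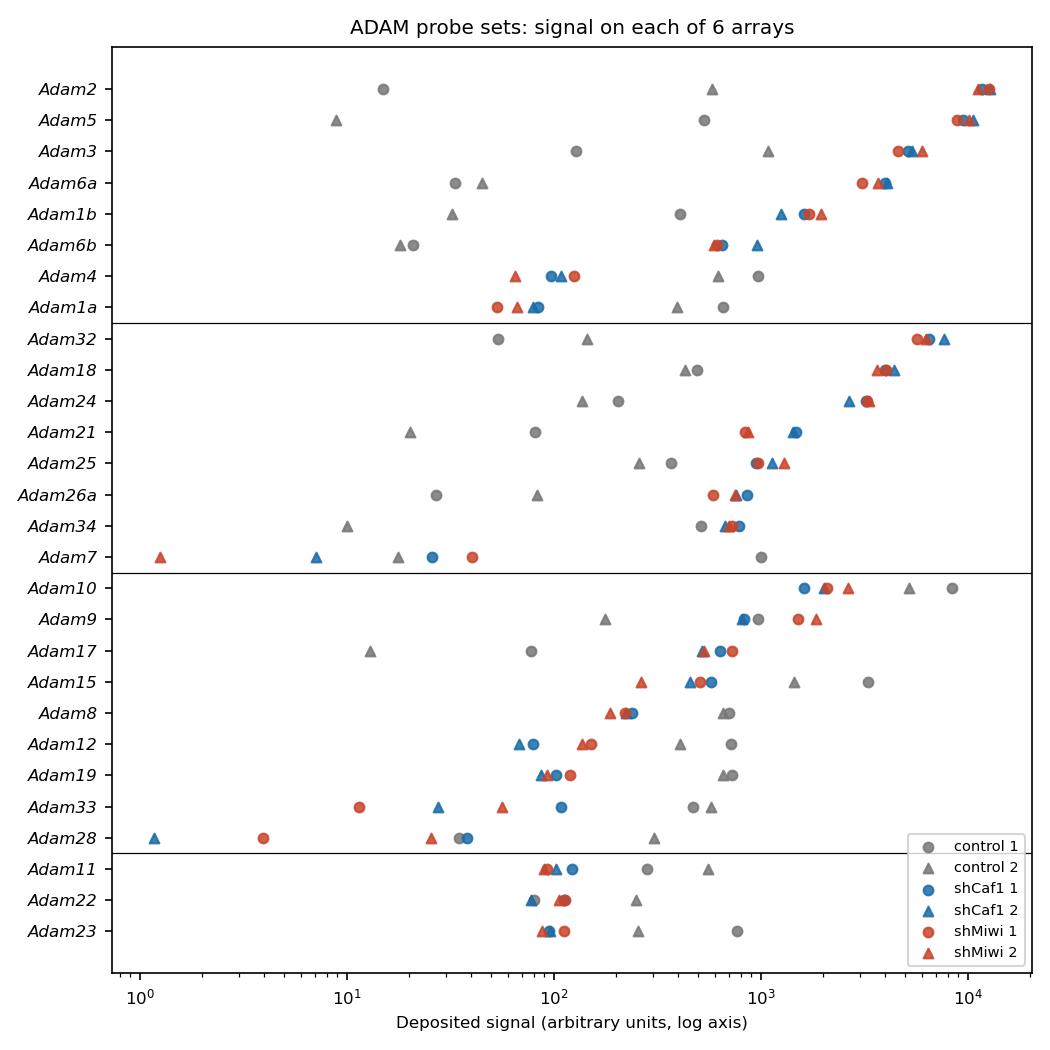
Deposited signal of each ADAM gene on the 6 arrays, on a log axis, with grey for control, blue for shCaf1 and red for shMiwi, circles for replicate 1, triangles for replicate 2 and horizontal black lines between the roles. Points of shCaf1 and shMiwi lie close together for most genes, and the control points of Adam2, Adam5 and Adam34 are far from each other.

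Among the other germ cell members, Adam21 was the gene that differed between the knockdowns. Adam21 encodes a testis ADAM. The signal was 81.4 and 20.3 in control, 1480 and 1425 in shCaf1 and 840.2 and 868 in shMiwi. The 3 groups did not overlap, and shMiwi lay between control and shCaf1. Adam21 fell by 0.76 on the log2 scale in shMiwi relative to shCaf1, to 0.592-fold (SE 0.13, 95% interval -1.05 to -0.46, limma adjusted p = 0.0169). On the hybridization control scale the difference was -0.36 and not called (limma adjusted p = 0.215). The call was also lost without either shCaf1 array (limma adjusted p = 0.0931 without replicate 1 and 0.104 without replicate 2) and without an intensity trend (0.128). Against control Adam21 was higher by 3.87 in shMiwi and 4.63 in shCaf1 (limma adjusted p = 0.0137 and 0.00906), and the shMiwi call was lost without control 2 (0.0581).

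Elongating spermatid markers moved in the direction of Adam21 between the knockdowns. By limma, 7 of 8 elongating spermatid markers and 2 of 6 round spermatid markers fell in shMiwi relative to shCaf1, beside a background of 3.39% lower, with median differences of -0.58 and -0.39. These counts were 2 of 8 and 0 of 6 on the hybridization control scale, beside 0.966% lower, and the medians were -0.19 and 0.00, against 0.39 over all probe sets tested. The summed signal of the elongating spermatid markers was 154214 and 167925 in shCaf1 and 115100 and 106099 in shMiwi, and no marker was near 0 on these arrays. None of the 6 pachytene spermatocyte markers was called on the deposited scale, where their median difference was 0.20, and 4 were called higher on the hybridization control scale. The part of these markers in the difference of Adam21 was not tested.

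The window before the annotated start of Adam21 (chr12:81568475-81568724, minus strand, GRCm38.p6, RefSeq) is shown because the gene differed between the knockdowns. Capitals mark its match to AACNG, the core of the site that MYB proteins such as the spermatocyte factor MYBL1 bind.
Adam21: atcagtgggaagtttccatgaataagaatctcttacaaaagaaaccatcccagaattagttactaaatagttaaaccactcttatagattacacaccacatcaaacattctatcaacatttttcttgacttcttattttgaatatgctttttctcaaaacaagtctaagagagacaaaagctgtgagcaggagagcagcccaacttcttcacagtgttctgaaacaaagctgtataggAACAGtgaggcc
AACNG or its complement CNGTT was in 6 of the 7 windows of sperm surface, germ cell or epididymal members and in 74.2% of all windows, so this short motif is common. The short site of the cAMP response element, TGACG or its complement CGTCA, was in 0 of these 7 windows and in 17.8% of all windows. The full palindrome TGACGTCA was in 0 of the 16 windows of the family, from 14 members, and in 1.55% of all windows.

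Adam32, a germ cell member of unclear function, read 53.5 and 145 in control, 6522 and 7656 in shCaf1 and 5702 and 6272 in shMiwi. Both shMiwi arrays were below the shCaf1 arrays, with a difference of -0.24 that was not called (limma adjusted p = 0.256). It was higher than control by 5.82 in shMiwi and 6.06 in shCaf1 (limma adjusted p = 0.00448 and 0.00564). Adam18, another testis member, read 494 and 430 in control, 3972 and 4403 in shCaf1 and 4040 and 3629 in shMiwi, with overlapping knockdown groups. It was higher than control by 3.01 and 3.14 (limma adjusted p = 0.0221 and 0.0209), and both calls were lost without control 1 (0.0655 and 0.064).

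Adam24, Adam25, Adam26a and Adam34 belong to the testases, a set of testis ADAM genes known from the mouse. Adam24 read 205 and 136 in control, 3238 and 2667 in shCaf1 and 3252 and 3351 in shMiwi, and was higher than control by 4.17 and 4.01 in shMiwi and shCaf1 (limma adjusted p = 0.00916 and 0.0115). Adam26a read 26.9 and 82.8 in control, 854 and 761 in shCaf1 and 588 and 747 in shMiwi. It was higher than control by 3.38 and 3.66 (limma adjusted p = 0.0346 and 0.0284), and these calls were lost without control 1 (0.25 and 0.218) and without control 2 (0.0666 and 0.0528), and in shMiwi without shMiwi replicate 2 (0.0533).

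Adam25 read 368 and 258 in control, 949.9 and 1127 in shCaf1 and 966 and 1300 in shMiwi. Every knockdown array was above the control arrays, but limma called neither comparison (1.81, adjusted p = 0.165, and 1.70, adjusted p = 0.193). Adam34 read 516 and 10.0 in control, 788 and 674 in shCaf1 and 725 and 706 in shMiwi. It was not called either (2.63, limma adjusted p = 0.119, and 2.66, adjusted p = 0.122), and its 2 control arrays were far from each other. None of the testases was called between the knockdowns, where their differences ran from -0.28 for Adam26a to 0.17 for Adam24.

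Adam7 is made in the epididymis and passed to sperm there. It read 1007 and 17.6 in control, 25.9 and 7.13 in shCaf1 and 40.4 and 1.25 in shMiwi. Only control 1 was bright, the other arrays were dim, and the gene was not tested. The 2 measured epididymal markers had median percentiles of 60.9 and 63.5 on the control arrays and 9.8 to 23.5 on the shRNA arrays. Their part in the Adam7 signal was not tested.

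Adam9 was the sheddase that differed between the knockdowns. It encodes meltrin gamma, a broadly expressed protease. The signal was 970.5 and 177 in control, 827 and 812 in shCaf1 and 1512 and 1844 in shMiwi. Both shMiwi arrays were above both shCaf1 arrays, and control 1 lay between the knockdown groups. Adam9 rose 2.02-fold in shMiwi relative to shCaf1 (log2 difference 1.01, SE 0.15, 95% interval 0.68 to 1.34, limma adjusted p = 0.00966). Adam9 is also the only member past 2-fold without overlap on the deposited scale, beside 1.25% of all probe sets tested that were higher by this rule. The call held in 13 of 14 alternative analyses and was lost without an intensity trend (limma adjusted p = 0.125). Against control, limma called Adam9 in neither knockdown (1.95, adjusted p = 0.132, in shMiwi and 0.94, adjusted p = 0.435, in shCaf1).

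On chromosome 8, Adam9 follows Adam18, Adam3, Adam5 and Adam32 with no other protein-coding RefSeq gene between them. These 4 neighbours had differences of -0.24 to 0.00 between the knockdowns, without a call, whereas Adam9 was called higher. Whether Adam9 differed from its neighbours was not tested.

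Peritubular myoid markers were the somatic list with the most calls in the direction of Adam9. By limma, 2 of 4 peritubular myoid markers rose in shMiwi relative to shCaf1: Myh11, smooth muscle myosin, read 298 and 270.0 in shCaf1 and 532 and 579 in shMiwi (adjusted p = 0.0198), and Tagln, an actin-binding protein, read 185 and 209 against 377 and 384 (adjusted p = 0.0285). The summed signal of the 4 markers was 3608 and 3817 in shCaf1 and 4989 and 4669 in shMiwi. Of other lists, 1 of 6 Sertoli markers (Wt1) and 1 of 4 Leydig markers (Cyp11a1) rose, and 0 of 5 macrophage and leukocyte and 0 of 3 endothelial markers were called. The background for these lists was 3.7% higher. On the hybridization control scale limma called all 4 myoid markers higher, beside 26.5%. There it also called 2 of 7 measured Sertoli, 2 of 4 Leydig, 1 of 5 macrophage and leukocyte and 1 of 4 endothelial markers higher. The median differences were 0.91 for the myoid, 0.14 for the Sertoli, 0.16 for the Leydig, 0.03 for the macrophage and leukocyte and -0.14 for the endothelial list. No myoid marker read 0 on these arrays. The part of these cells in the Adam9 difference was not tested.

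Adam10, the Notch sheddase, read 8349 and 5185 in control, 1613 and 2018 in shCaf1 and 2084 and 2637 in shMiwi. Both shMiwi arrays were above the shCaf1 arrays, but the difference of 0.37 was not called (95% interval 0.01 to 0.74, limma adjusted p = 0.192). Another probe set of Adam10 read 85.2 and 71.4 in shCaf1 and 198 and 209 in shMiwi, and its difference of 1.22 was called (limma adjusted p = 0.0229). Against control the 2 probe sets differed in direction, without a call: -1.48 and 1.88 in shMiwi (limma adjusted p = 0.225 and 0.294), and -1.86 and 0.66 in shCaf1 (0.152 and 0.722). The other 2 Adam10 probe sets were too dim to be tested. Adam12, meltrin alpha, known from muscle and placenta, read 721 and 409 in control, 79.3 and 67.9 in shCaf1 and 151 and 137 in shMiwi. The knockdown groups did not overlap, and the difference of 0.84 was not called (95% interval 0.27 to 1.40, limma adjusted p = 0.0772).

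Adam17, the TNF converting enzyme, read 77.2 and 12.9 in control, 639 and 521 in shCaf1 and 729.8 and 530.4 in shMiwi. The knockdown groups overlapped, and the difference between them was 0.11. It was the only sheddase called higher than control, by 3.62 in shMiwi (limma adjusted p = 0.0452), while the 3.51 in shCaf1 was not called (adjusted p = 0.0541). The shMiwi call was lost without control 1 (limma adjusted p = 0.119), without control 2 (0.241) and without shMiwi replicate 1 (0.0546). The 2 other probe sets of Adam17 gave 0.35 and -2.33 for shMiwi against control, neither called (limma adjusted p = 0.824 and 0.181).

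The remaining sheddases were dimmer on the knockdown arrays of the deposited scale, without a limma call. Adam15 read 3290 and 1452 in control, 572 and 453 in shCaf1 and 509 and 265 in shMiwi. Adam8, a leukocyte member, read 699 and 659 in control, 238 and 223 in shCaf1 and 222 and 188 in shMiwi. Adam19, meltrin beta, read 725 and 656 in control, 102 and 86.4 in shCaf1 and 119 and 92.6 in shMiwi. In these 3 genes every knockdown array was below both control arrays.

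Adam33, known from smooth muscle and fibroblasts, read 472 and 577 in control, 108 and 27.7 in shCaf1 and 11.5 and 56.3 in shMiwi. Adam28, a lymphocyte member, read 34.8 and 306 in control, 38.3 and 1.18 in shCaf1 and 3.92 and 25.6 in shMiwi. Adam33 was below control on every knockdown array, and Adam28 overlapped with control in shCaf1. On the hybridization control scale all 7 of the sheddases that were lower on the deposited scale (Adam8, Adam10, Adam12, Adam15, Adam19, Adam28 and Adam33) had positive differences from control; for Adam10 this concerns the brightest of its probe sets. Endothelial markers had median percentiles of 87.8 and 75.8 on the control arrays and 52.7 to 57.8 on the shRNA arrays. Their part in the sheddase signal of the control arrays was not tested.

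Adam11, Adam22 and Adam23 encode catalytically inactive proteins of neurons; ADAM22 and ADAM23 bind the secreted protein LGI1. Adam11 read 282 and 554 in control, 123 and 102 in shCaf1 and 92.5 and 89.2 in shMiwi. Adam22 read 80.6 and 248.7 in control, 112 and 77.7 in shCaf1 and 113 and 106 in shMiwi. Adam23 read 766 and 255 in control, 94.9 and 95.6 in shCaf1 and 112 and 88.2 in shMiwi. Adam11 and Adam23 were below control on every knockdown array, Adam22 overlapped with control, and limma called none of them in any comparison on the deposited scale. On the hybridization control scale their calls carry the limit of dim control signals given above. Limma called all 3 higher than control in both knockdowns on that scale (adjusted p = 0.00107 to 0.0102), as it did most probe sets. Between the knockdowns their differences ran from -0.26 for Adam11 to 0.20 for Adam22.

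Proteins linked to bringing ADAM3 to the sperm surface were followed as a list of 17 genes, of which 16 had a probe set. Between the knockdowns 3 of 16 fell and 0 rose, and the median difference was -0.20, against 0.02 over all probe sets tested and a background of 3.39% lower. Calr3 (calsperin, an endoplasmic reticulum chaperone) read 5695 and 6544 in shCaf1 and 4336 and 4428 in shMiwi, a difference of -0.48 (limma adjusted p = 0.043). Cmtm2a and Cmtm2b, membrane proteins needed for ADAM3 on sperm, fell by 0.42 and 0.50 on the log2 scale (limma adjusted p = 0.0433 and 0.0407). In all 3 genes both shMiwi arrays were below both shCaf1 arrays. Each of these calls held in only 5 of 14 alternative analyses and was lost without either shCaf1 array or shMiwi replicate 2 (limma adjusted p = 0.0516 to 0.286), and on the hybridization control scale the differences were -0.08 for Calr3, -0.03 for Cmtm2a and -0.11 for Cmtm2b.

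The other maturation factors with the greatest differences were not called. Pcsk4, the germ cell proprotein convertase, differed by -0.64 (limma adjusted p = 0.0507) and Pdilt, a testis disulfide isomerase homologue that works with calsperin, by -0.45 (adjusted p = 0.0589). Ace, whose testis form is needed for ADAM3 on sperm, differed by -0.40 (limma adjusted p = 0.358), and Tex101, a germ cell surface protein, by 0.36 (adjusted p = 0.0976). The elongating spermatid markers named above fell in the same comparison, and their part was not tested. Against control, 5 of 15 tested maturation factors were called higher and 0 lower in each knockdown, beside 8.76% (shMiwi) and 7.69% (shCaf1) of all probe sets called higher. All 16 were called higher in each on the hybridization control scale, beside 87.2% and 82.4%.

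Regulators of the sheddases, a list of 23 tissue inhibitors, iRhoms, tetraspanins, convertases and adaptors, gave 1 call, a rise, among 21 tested, a share near the background of 3.7% higher. Pcsk5, a convertase that can remove prodomains, read 204 and 266 in shCaf1 and 464 and 591 in shMiwi and rose by 1.12 (SE 0.20, 95% interval 0.65 to 1.58, limma adjusted p = 0.021). Its groups did not overlap, and the call was lost without shCaf1 replicate 1 (limma adjusted p = 0.0855). Rhbdf1, an iRhom that carries ADAM17 out of the endoplasmic reticulum, differed by 0.74 (limma adjusted p = 0.0972) and Sh3d19, an adaptor that binds ADAM tails, by 0.53 (adjusted p = 0.0542). Pcsk6, a convertase, and Tspan14, a tetraspanin partner of ADAM10, differed by 0.54 and 0.52 without a call (limma adjusted p = 0.158 and 0.25). The median difference of the list was 0.11. Against control 1 of 22 was called higher in shMiwi (Timp3, an inhibitor of ADAM17, by 3.03) and 0 in shCaf1, and 0 were lower in either, beside 8.76% and 7.69% higher. In each knockdown 19 were called higher on the hybridization control scale, beside 87.2% and 82.4%.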

How the data were processed

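Per the labels' protocols, spermatid RNA went through biotin labelling with a GeneChip 3' IVT kit before hybridization to Affymetrix arrays. The authors' deposited intensities are linear MAS5 signals (named in the submitters' processing notes, version not given in the sources used here), and their values have a 2% trimmed mean of 500 on every array. Arrays of low overall signal are raised by that scaling. Detection calls were not used here.

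After 64 control probe sets were left out, signals were taken as log2(signal + 16), which understates the change of dim probe sets, and 27022 probe sets with a mean above the 40th percentile were tested. Knockdowns were compared with limma 3.58.1 (R 4.3.3; lmFit, eBayes with an intensity trend) on 4 arrays (2 residual degrees of freedom). Control comparisons used all 6 arrays with a variance weight per group (3 residual degrees of freedom). Benjamini-Hochberg adjustment ran over all probe sets tested. The scripts were tested on simulated data. The members, the lists and the tests were chosen with earlier results of these data known. Text names every member, the targeted genes and, from the maturation and regulator lists, the genes called between the knockdowns and the next 4 by size; Myh11, Tagln, Wt1, Cyp11a1, Timp3 and Prm1 were named after their values were seen. Symbols of all 28 members matched mouse RefSeq (GRCm38.p6), which also supplied promoter windows for 14. RefSeq has 6 other genes of this name pattern, not analysed here. Other constants, filters, scalings, weights, a replicate block and fits without single arrays served as alternatives.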

Additional observations from a re-analysis of the deposited data

How the results depend on the processing

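With 2 arrays a group and no detection calls, dim probe sets cannot be ordered, and the spread of the control arrays limits every comparison with control. The cause of the changes below was not tested. Calls against control on the hybridization control scale carry the limit of dim control signals given above, for the ADAM genes and the other lists. Between the knockdowns, 1916 probe sets were called. The count was 789 in the fit on all 6 arrays, 7416 on the hybridization control scale, 1269 with median centring, 568 without a filter, 16 without an intensity trend and 263 to 3363 with single arrays left out. ADAM genes called higher numbered 5 on the hybridization control scale, 0 without a trend and 1 to 2 with single arrays left out (lower: 0, 0 and 0 to 2). By the size rule 0 members were higher with a constant of 64, 0 with quantile normalization and 2 on the hybridization control scale.

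Replicate numbers did not pair the arrays (correlations of deviations 0.06, -0.00 and 0.19 over 27022 probe sets). With the replicate number as a block, 5392 probe sets and 3 higher ADAM genes were called between the knockdowns, the added genes being Adam10 and Adam12.

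For shMiwi against control the count of 3189 became 4963 with a constant of 64, 11687 with equal weights, 23592 on the hybridization control scale, 8264 with median centring, 1955 with quantile normalization and 1309 to 3456 with single arrays left out. For shCaf1 the count of 2671 became 4349, 11205, 22261, 7873 and 1597 in the same order, 1418 without a trend and 1062 to 2986 with single arrays left out. ADAM genes called higher numbered 24 (shMiwi) and 25 (shCaf1) on the hybridization control scale, 7 in each without a trend and 7 to 12 and 7 to 10 with single arrays left out. ADAM genes called lower numbered 10 in each with equal weights and 0 to 1 in shMiwi with single arrays left out. By the size rule 25 members were higher and 0 lower on the hybridization control scale in each, and 3 and 4 were lower with median centring.

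On the hybridization control scale these members turned from lower to called higher in shMiwi: Adam4 (1.63), Adam8 (2.75), Adam10 (3.77), Adam11 (1.95), Adam12 (2.50), Adam15 (2.51), Adam19 (1.87), Adam22 (2.62) and Adam23 (2.20). In shCaf1 they were Adam1a (1.49), Adam4 (1.44), Adam8 (2.54), Adam10 (3.0), Adam11 (1.86), Adam12 (1.32), Adam15 (2.58), Adam19 (1.39), Adam22 (2.08) and Adam23 (1.80). Adam17 gave -2.33 in shMiwi with another of its probe sets. Of the 350 member values recomputed between the knockdowns, 336 kept direction and call.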

Other observations

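The median absolute log2 difference between the replicates of a group over the 28 ADAM genes was 0.213 in shCaf1 and 0.252 in shMiwi, against 1.19 in control. Over all probe sets tested these values were 0.183, 0.215 and 1.28, so the family was close to the rest of the array. The summed deposited signal of the 28 probe sets was 53474 to 58452 on the 4 shRNA arrays and 21984 and 14369 on the control arrays. The 9 sheddases made up 15338 and 9435 of the control sums and 4210 to 5776 of the shRNA sums, and the 8 sperm surface genes made up 2765 and 2775 of the control sums and 31659 to 35246 of the shRNA sums. Adam10 alone read 8349 and 5185 of the sheddase sums in control. On the hybridization control scale the sheddase sums were 186 and 581 in control and 3507 to 7165 on the shRNA arrays, the other way round. These sums add probe sets of unequal brightness and describe the arrays only.

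A probe set that names Adam1a together with Mapkapk5 read 497 and 420 in shCaf1 and 273 and 171 in shMiwi and was called lower (-1.02, limma adjusted p = 0.0393). The 2 brightest probe sets of the same pair of genes were not called (-0.05 and -0.06).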
